A study of Mus musculus with 6 samples.

Results

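The genes of pre-mRNA splicing factors and heterogeneous nuclear ribonucleoproteins (hnRNPs) were followed in mouse ventral prostate. They were chosen by name: a probe was taken when its array name, or the current symbol of its RefSeq accession, began with Sf3a, Sf3b, Sfrs, Srsf, Snrp, Hnrp, Hnrnp, U2af or Prpf. This gave 75 genes of the 19100 that the gene table could name on the array, with 145 of 41174 probes, and each gene was summarised by its probe of highest mean intensity over both channels and all 6 arrays. All 75 of these probes passed the filter on dim signal, which left 27858 probes to be tested. The set was looked at because Sf3b2 was high in old mice, so every value of old against young mice is given below as a description without a test. The genes were 9 subunits of SF3a and SF3b, 5 of the U2AF family, 14 small nuclear ribonucleoprotein (snRNP) proteins, 13 PRPF genes, 16 serine/arginine-rich (SR) and related proteins and 18 hnRNPs. For 10 genes the current symbol no longer carries one of these prefixes, among them Snrnp70, Eftud2, Scaf11 and Tra2b.

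RNA of FVB mice was hybridised to 6 Agilent arrays with 2 colours, and each ventral prostate sample was pooled from several mice. The green dye (Cy3) always carried wild type mice aged 2.5 months. The red dye (Cy5) carried fl26 mice, transgenic for full-length 15-LOX2 (a lipoxygenase that oxidises arachidonic acid), svb9 mice, transgenic for its splice variant b, both aged 2.5 months, or wild type mice aged 15 months (old wild type). Each group had 2 arrays of independent pools; the sample labels give 3 mice per pool and the design text gives 6 with combined lobes. The promoter that drives the transgenes is not given in the labels, and each transgene is represented by 1 line. Dyes were never exchanged, so dye and group cannot be told apart in a ratio to young wild type, whereas the dye cancels between fl26 and svb9. Whether the arrays shared a pool of young wild type RNA is not stated. In RNA from whole tissue, a change in the number of cells of a type and a change in RNA per cell cannot be told apart.

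Splicing removes introns from pre-mRNA in steps carried out by the spliceosome, which is assembled anew on each intron from snRNPs and many other proteins. The U1 snRNP marks the start of an intron, the U2AF proteins mark its end, and SF3a and SF3b hold the U2 snRNP on the branch point. SR proteins mostly promote the use of nearby exons, whereas hnRNPs coat the nascent transcript and often oppose it, and both are made in nearly every cell, the secretory epithelium of the prostate included.

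Signal of these genes was well above background in green for 74 or 75 of 75 genes on every array. In red it was well above background for all 75 genes on fl26 array 1 and svb9 array 1, for 72 on fl26 array 2, for 70 on svb9 array 2, for 31 on old array 1 and for 70 on old array 2. Among all tested probes the red share ranged from 11.5% on old array 1 to 95.5% on svb9 array 1. The median red signal of the genes above local background was 16.1 units on old array 1, against 159 on old array 2 and between 245 and 1360 on the other 4, while the green median stayed between 425 and 511. Spots marked as outliers by the scanner software were left out, which removed 13 of the 75 genes from old array 2, 2 each from old array 1 and svb9 array 2 and none from the other arrays. None was saturated.

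The tissue was checked against marker genes. In green, all 8 luminal epithelial markers and all 6 genes listed as ventral prostate secretory products were well above background on all 6 arrays. Of the 6, Mmrn1 was listed without a check that it is such a product. Its red signal was well above background on 2 of 6 arrays. Of 3 seminal vesicle products, 2 (Svs2 and Svs4) were not well above background in green on any array. The third, Svs5, was well above background in green on 3 of 6 arrays and in red on 0. The genes of the secretory list differed between arrays, with median log2 ratios of -1.39 and 0.11 in fl26, -1.35 and 0.17 in svb9 and 3.53 and 0.62 on the old arrays. Their summed level, in log2 units, was 16.62 and 17.34 in fl26, 16.70 and 17.79 in svb9, and 20.89 and 18.24 in old wild type, against 14.22 to 18.14 in the green channels. Of the 6 probes, Defb50, Sbp and Spink1 were saturated on all 6 arrays and Msmb on 2, so these ratios and levels are only rough. The 4 basal epithelial markers had median log2 ratios of 0.61 and 0.56 in fl26, with all 4 estimates above 0 and the smallest adjusted p at 0.0589 (Trp63), against -0.13 and 0.07 in svb9 and -0.14 and -0.22 in old wild type. Their summed level was 11.08 and 11.10 in fl26, 10.41 and 10.61 in svb9 and 10.35 and 10.78 in old wild type, against 10.39 to 10.89 in green. The 8 luminal markers had median log2 ratios of -0.17 and 0.20 in fl26, 0.03 and 0.05 in svb9 and 0.49 and 0.28 in old wild type. In old wild type 7 of the 8 had a mean above 0, but only 3 were measured on both old arrays. The part of these lists in the results below was not tested.

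**Figure D1:**
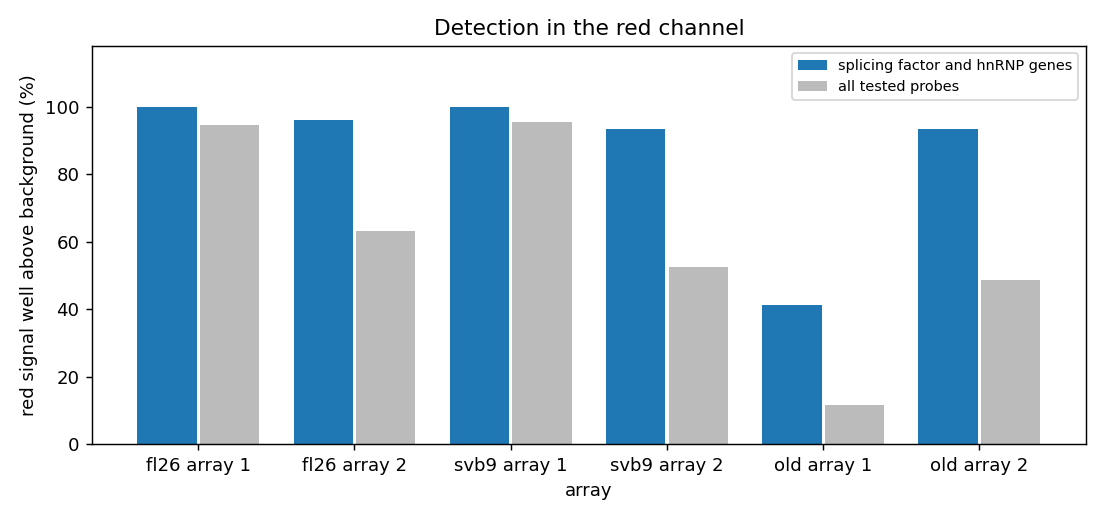
Share of probes with red signal well above background on each of the 6 arrays (bars, in percent, from 0). Blue bars are the 75 splicing factor and hnRNP genes and grey bars all tested probes; on old array 1 the shares were 41.3% and 11.5%.

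Sf3b2 encodes a subunit of SF3b that contacts the pre-mRNA close to the branch point. Its log2 ratio to young wild type was 0.98 and 0.88 on the old arrays, 0.17 and 0.29 on the svb9 arrays and 0.07 and 0.08 on the fl26 arrays. It was above 0 on all 6, and the old arrays stood apart from the 4 others without overlap. It had the highest ratio of the 73 genes measured on old array 1 and the second highest of 62 on old array 2. With outlier spots kept, Prpf3 (0.94) and Snrnp70 (0.70) lay above Sf3b2 (0.66) on old array 2. With these spots left out, the following held for Sf3b2. Of all tested probes, 99.4% and 99.0% lay below it there. Sf3b2 was represented by 1 probe only.

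The raw signals of Sf3b2 show what this ratio rests on. Its red signal above local background was 4446 and 1612 units in fl26, 4655 and 1212 in svb9 and 116 and 1177 on the old arrays. Its green signal was 1511 and 1845, 1571 and 1909, and 1747 and 2062 on the same arrays. Red was thus dimmer than green on both old arrays and on the second array of each line, and the ratio is high only relative to the other probes of like brightness, to which loess normalization sets each array. When arrays were centred on their median instead, Sf3b2 was at -3.09 and -0.59 in old wild type, 0.95 and -0.19 in fl26 and 0.90 and -0.49 in svb9, so that its direction was turned on 4 of the 6 arrays. The median of the 75 genes then was -2.40 on old array 1 and -0.93 on old array 2, which places Sf3b2 below that median on the first and above it on the second. The log ratios of the scanner software gave 0.97 and 0.89 on the old arrays, and keeping spots marked as outliers gave 0.70 and 0.66.

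In the transgenic lines Sf3b2 did not pass the test. The limma estimate was 0.07 ± 0.07 (SE, 2 arrays) in fl26 with an adjusted p of 0.781, and 0.23 ± 0.07 (SE, 2 arrays) in svb9 with an unadjusted p of 0.0211 and an adjusted p of 0.980. Image files were extracted on 3 dates, and 2 of them hold an old array and a transgenic array. Within those dates Sf3b2 was 0.90 higher in old array 1 than in fl26 array 2 and 0.59 higher in old array 2 than in svb9 array 2 (log2), against medians of 0.10 and 0.05 over the 75 genes. Within the remaining date fl26 array 1 lay 0.10 below svb9 array 1. These differences rest on loess and on the gene by which the set was chosen. After median centring Sf3b2 was at -3.09 on old array 1 against -0.19 on fl26 array 2. It was then at -0.59 on old array 2 against -0.49 on svb9 array 2, so old was lower within both dates. The medians of the 75 genes were lower in old as well. They were -2.40 on old array 1 against -0.20 on fl26 array 2, and -0.93 on old array 2 against -0.68 on svb9 array 2.

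The promoters of 4 genes are printed because these genes stood at the ends of the set in old wild type: of the genes measured on both old arrays, Sf3b2, Snrnp70 and Snrpf had the highest mean ratios and Snrpc the lowest. Each window runs from 250 bases before to 50 bases after the annotated start, 5′ to 3′ on the strand of the gene, and comes from RefSeq (GRCm38.p6), whose promoter table matched 66 of the 75 genes by symbol. Sf3b2 lies at chr19:5295406-5295705 (minus strand; a second annotated start gives a window shifted by a few bases), Snrnp70 at chr7:45395693-45395992 (minus), Snrpf at chr10:93589609-93589908 (minus) and Snrpc at chr17:27839837-27840136 (plus). Capitals mark matches to the CCAAT box (CCAAT), the GC box (GGGCGG), the ETS core (CGGAAG) and the NRF1 core, on either strand, with each motif counted on its own so that matches may overlap.
Sf3b2: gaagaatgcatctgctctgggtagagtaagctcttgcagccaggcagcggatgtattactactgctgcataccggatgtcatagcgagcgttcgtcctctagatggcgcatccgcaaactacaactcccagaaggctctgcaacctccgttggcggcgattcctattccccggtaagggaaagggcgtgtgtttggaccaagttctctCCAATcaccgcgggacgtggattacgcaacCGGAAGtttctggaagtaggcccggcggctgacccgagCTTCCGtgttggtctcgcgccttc
Snrnp70: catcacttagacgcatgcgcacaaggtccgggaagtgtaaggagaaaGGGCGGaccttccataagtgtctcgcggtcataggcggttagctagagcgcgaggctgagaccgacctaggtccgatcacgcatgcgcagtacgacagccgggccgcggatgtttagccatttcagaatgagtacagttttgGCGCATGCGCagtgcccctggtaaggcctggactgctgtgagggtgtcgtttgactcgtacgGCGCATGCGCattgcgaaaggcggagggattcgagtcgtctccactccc
Snrpf: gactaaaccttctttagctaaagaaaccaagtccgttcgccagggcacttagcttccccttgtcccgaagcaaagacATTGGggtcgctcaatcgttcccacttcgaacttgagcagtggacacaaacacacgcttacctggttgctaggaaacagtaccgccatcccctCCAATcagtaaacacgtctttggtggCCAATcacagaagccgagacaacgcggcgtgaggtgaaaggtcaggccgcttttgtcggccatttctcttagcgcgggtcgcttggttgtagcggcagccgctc
Snrpc: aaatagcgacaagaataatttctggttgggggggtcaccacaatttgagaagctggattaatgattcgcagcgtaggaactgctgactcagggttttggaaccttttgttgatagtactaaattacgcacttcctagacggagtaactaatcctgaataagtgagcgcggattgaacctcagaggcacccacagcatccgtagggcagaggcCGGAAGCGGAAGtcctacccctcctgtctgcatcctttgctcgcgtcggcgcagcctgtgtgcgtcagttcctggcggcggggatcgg
Sf3b2 held 1 CCAAT box and 2 ETS cores, Snrnp70 1 GC box and 2 NRF1 cores, Snrpf 3 CCAAT boxes and Snrpc 2 adjoining ETS cores. No motif was found in all 4. Over the 88 promoter windows of the 66 matched genes, an ETS core was found in 48.9%, a GC box in 64.8% and an NRF1 core in 20.5%, against 16.9%, 35.7% and 4.60% of all 32851 windows in the table. A CCAAT box was found in 43.2% against 37.4%, an E-box (CACGTG) in 13.6% against 7.15% and a TATA box (TATAAA) in 7.95% against 13.6%. The windows were also rich in G and C, with a median of 60.0% against 52.7% and 25 CpG dinucleotides against 7. These shares are descriptions of the sequence.

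The other SF3b subunits did not share the value of Sf3b2 in old wild type. Sf3b1, which contacts the branch point, was at 0.11 and 0.60 there, with red signal well above background on 1 of the 2 arrays. Its second probe was at -0.29 and 0.11. Sf3b3, a scaffold subunit, was at -0.14 and 0.17, and Sf3b4, a partner of Sf3b2 with RNA recognition motifs, at -0.10 and -0.50. Sf3b5, a small subunit, was at -0.03 and 0.20. Sf3b6, which sits at the branch point adenosine, was at -0.19 on the 1 old array that kept its spot. In SF3a, Sf3a1 was at -0.35 and -0.29 while its second probe was at 0.07 and 0.10, Sf3a2 was at 0.18 and 0.05 without red signal above background on either array, and Sf3a3 was at 0.18 on the 1 array kept. These values come from loess-normalized arrays; after median centring 8 of the 9 subunits were below 0 in old wild type.

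**Figure D2:**
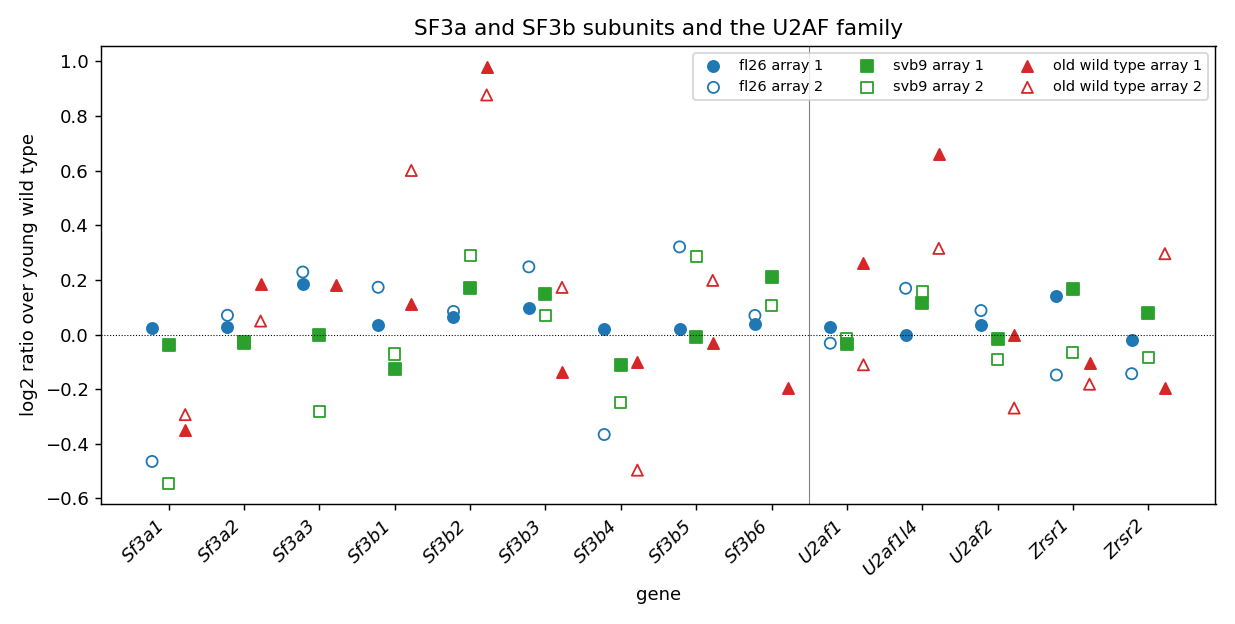
Log2 ratio to young wild type (vertical axis) of the 9 SF3a and SF3b subunits and the 5 U2AF family genes, 1 symbol per array. Blue circles are fl26, green squares svb9 and red triangles old wild type, filled for array 1 and open for array 2. Sf3b2 reached 0.98 and 0.88 in old wild type after loess; after median centring it was at -3.09 and -0.59.

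In fl26, the 9 SF3a and SF3b subunits had a median log2 ratio of 0.07, with 7 above and 2 below 0, and in svb9 the median was -0.03 with 4 above and 5 below. Of all tested probes 50.1% were above 0 in fl26 and 48.7% in svb9. None of the 9 subunits passed limma's test after Benjamini-Hochberg adjustment over all probes in either line. Sf3a3 was at 0.18 and 0.23 in fl26 and at -0.002 and -0.28 in svb9. The difference of 0.35 ± 0.14 (SE, 2 arrays per line) between the lines had an unadjusted p of 0.0488 and an adjusted p of 1. Sf3a1 was at 0.02 and -0.46 in fl26 and at -0.04 and -0.54 in svb9, so the arrays of each line lay farther apart than the lines did. Sf3b4 was at 0.02 and -0.37 in fl26 and at -0.11 and -0.25 in svb9.

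The U2AF family had ratios near 0 in the transgenic lines after loess. U2af2, which binds the polypyrimidine tract, was at 0.03 and 0.09 in fl26 and at -0.02 and -0.09 in svb9, and U2af1, which reads the AG at the end of the intron, was at 0.03 and -0.03 in fl26 and at -0.03 and -0.02 in svb9. All 5 genes stayed within 0.2 of 0 on both arrays of both lines. So did 15349 of 27737 tested probes in fl26 and 18838 of 27645 in svb9. U2af2 had red signal well above background on only 1 of 2 arrays in each line. After median centring U2af2 alone of the 5 stayed within 0.2, whereas U2af1 was at 0.89 and -0.27 in fl26 and at 0.68 and -0.70 in svb9. U2af1l4, a paralogue of U2af1, was at 0.66 and 0.32 on the old arrays, with red signal above background on 1 of them. U2af1 was at 0.26 and -0.11 and U2af2 at -0.003 and -0.27, the latter without red signal above background. Zrsr1, an imprinted paralogue, was at -0.11 and -0.18, and Zrsr2, a factor of the minor spliceosome, at -0.20 and 0.30. After median centring all 5 had a mean below 0 in old wild type, though U2af2 was at 0.15 and -0.18 on the 2 arrays.

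Among the snRNP proteins, the 3 that are specific to U1 went different ways in old wild type. Snrnp70, which binds a stem-loop of U1 RNA, was at 0.54 and 0.88 there, at 0.18 and 0.07 in fl26 and at -0.05 and -0.15 in svb9. Its second probe was at -0.18 and 0.001 in old wild type, so the probes of this gene differed by 0.80 in their means, the widest gap of the 38 genes with several probes measured there. Snrpa, the U1 A protein, was at -0.03 and -0.64 by its brightest probe, whereas another probe was at 0.11 and 0.77. Snrpc, the U1 C protein that steadies pairing with the 5′ splice site, was below 0 on all 6 arrays, at -0.11 and -1.01 in fl26, -0.34 and -1.07 in svb9 and -0.56 and -1.04 on the old arrays. In each group array 2 was lower than array 1. Its red signal on old array 1 was 3.23 units and not well above background. After median centring Snrpc was at 0.72 on fl26 array 1 and 0.32 on svb9 array 1, and Snrnp70 was at -3.08 and -0.51 in old wild type.

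None of these proteins passed limma's adjusted test in either line. Snrpc had an estimate of -0.56 ± 0.26 (SE, 2 arrays) in fl26 with an adjusted p of 0.532, and of -0.71 ± 0.26 (SE, 2 arrays) in svb9 with an unadjusted p of 0.0332 and an adjusted p of 0.980. Snrpa1, the A′ protein of U2, was at 0.15 and 0.55 in svb9, the highest mean of the set there, and at 0.13 and 0.25 in fl26. Its adjusted p was 0.980 in svb9. It was at -0.06 and 0.56 in old wild type.

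The Sm proteins, which form the ring shared by the spliceosomal snRNPs, did not share a direction. Snrpf was at 0.80 and 0.52 in old wild type after loess, against 0.07 and -0.06 in fl26 and 0.01 and 0.25 in svb9, but after median centring it was at -3.08 and -0.90 there. Its second probe was at -0.38 and 0.29. The other ring members lay at or below 0 on both old arrays or differed in sign: Snrpg was at -0.17 and -0.39, Snrpe at -0.22 and -0.18, Snrpd1 at -0.12 and -0.22, Snrpb at -0.13 and -0.38, Snrpd2 at -0.12 and 0.003 and Snrpd3 at -0.26 and 0.19. Snrpn, a paralogue of Snrpb, was at -0.15 and -0.27. Of these ring proteins, Snrpg alone was below 0 on all 6 arrays after loess, and it was above 0 on the first array of each line after median centring. Outside the ring, Eftud2, a GTPase of the U5 snRNP, was at -0.15 and 0.05 in old wild type, and Snrpb2, a U2 protein, at -0.05 on the 1 array kept. Of the 14 snRNP proteins, 3 had a mean above and 11 a mean below 0 in old wild type, with a median of -0.12. The 2 array medians were -0.13 and -0.18. Of all tested probes 43.9% were above 0 in old wild type.

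**Figure D3:**
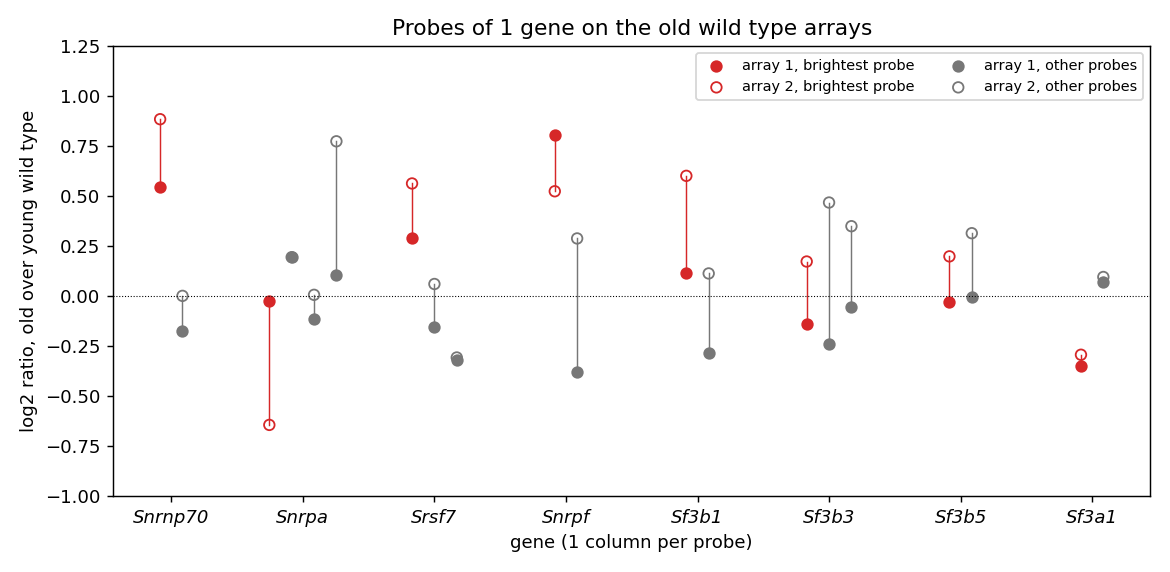
Log2 ratio of old over young wild type (vertical axis) for each probe of 8 genes with several probes, after loess. Red marks the brightest probe and grey the other probes, filled for array 1 and open for array 2. With outlier spots left out, the brightest probes of Snrnp70 and Snrpf lay above 0.50 on both arrays, whereas their second probes did not. After median centring the brightest probes of both lay below 0.

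The PRPF genes include core proteins of the U4/U6.U5 tri-snRNP and of the complexes that activate the spliceosome. Prpf19, a ubiquitin ligase of the activation complex, was at -0.42 and -0.57 in fl26 and at -0.95 and -0.73 in svb9, below 0 on all 4, though above 0 on fl26 array 1 after median centring (0.31). On the old arrays it was at 0.24 and -0.49, with red signal above background on 1. Its range over the 6 arrays, from -0.95 to 0.24, was the widest of the genes measured on all 6, followed by Hnrnpm with 1.09 and Snrnp70 with 1.03. Its estimate in svb9 was -0.84 ± 0.17 (SE, 2 arrays), with an unadjusted p of 0.00228, the smallest of the set there, and an adjusted p of 0.980. In fl26 the estimate was -0.50 ± 0.17 (SE, 2 arrays) with an adjusted p of 0.415, and the difference between the lines had an unadjusted p of 0.203.

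Prpf3 of the U4/U6 snRNP was at 0.23 and 0.56 in fl26, at 0.18 and -0.08 in svb9 and at 0.01 on the 1 old array kept. On that array its red signal was not well above background. With outlier spots kept, Prpf3 was at 0.94 on old array 2. Its estimate in fl26 was 0.40 ± 0.12 (SE, 2 arrays), with an adjusted p of 0.377. Prpf4b, a kinase that phosphorylates tri-snRNP proteins, was at -0.004 and -0.51 in fl26, -0.19 and -0.74 in svb9 and -0.07 and -0.63 on the old arrays, with the second array lower each time. Prpf6, which bridges parts of the tri-snRNP, was at 0.56 and 0.54 in old wild type, and at -0.10 and 0.44 in fl26 and 0.11 and -0.18 in svb9. Prpf38a, needed for activation, had the narrowest range of the genes measured on all 6 arrays and well above background in green on each and in red on at least 4: its values lay between -0.22 and -0.04. Next came Prpf4, a partner of Prpf3, with a range of 0.23, and Hnrnpa0 with 0.27. Prpf8, the core protein at the catalytic centre, was at 0.18 and 0.38 in fl26, 0.21 and 0.12 in svb9 and -0.004 and 0.40 on the old arrays. Its second probe had the opposite sign in fl26, at -0.08 and -0.30. Prpf38b was at 0.40 and 0.57 and Prpf18, a factor of the last step of splicing, at -0.38 and -0.51 in old wild type, each with red signal above background on 1 array. For both genes the probes differed by over 0.6 in their old means. In the difference of fl26 and svb9, 12 of the 13 PRPF genes were higher in fl26, with a median of 0.12. Of all tested probes 52% were higher, with a median of 0.005. No PRPF gene passed limma's adjusted test in this difference or had an unadjusted p below 0.05. After median centring the median of the difference was 0.28 over the 75 genes and 0.09 over all tested probes.

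The SR and related proteins had medians close to 0 in every group after loess: 0.03 in fl26, -0.03 in svb9 and 0.05 on the old arrays. After median centring they were 0.28, 0.04 and -1.65. The mean was then above 0 for 15 of 16 genes in fl26 and below 0 for all 15 measured in old mice. Scaf11, an SR-related protein, was at 0.15 and 0.46 in fl26 and at 0.20 and 0.36 in svb9, above 0 on all 4 after loess and on 3 of them after median centring, and at 0.05 and 0.06 in old wild type. Its estimates were 0.31 ± 0.10 (SE, 2 arrays) in fl26 with an adjusted p of 0.377 and 0.28 ± 0.10 (SE, 2 arrays) in svb9 with an adjusted p of 0.980. Srsf1, the founding member of the family, was at 0.04 and 0.16 in fl26 and at 0.07 and 0.11 in svb9. Tra2b, an activator of exon inclusion, was at 0.29 and -0.87 in fl26, so its 2 arrays had opposite signs. Among the old arrays, Srsf9 was at 0.77 and -0.24, Clasrp at 0.15 and 0.80, and Srsf7 at 0.29 and 0.56 by its brightest probe, but another of its probes was at -0.32 and -0.31. Srsf5 had no spot left on either old array.

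Of the 18 hnRNPs, 13 had a mean below 0 in fl26 and 14 in svb9, with medians of -0.09 and -0.13. Among all tested probes 50.1% were above 0 in fl26 and 48.7% in svb9. After median centring the count of hnRNPs below 0 was 3 in fl26 and 14 in svb9. The medians of the single arrays were 0.08 and -0.22 for fl26, -0.05 and -0.28 for svb9 and 0.08 and -0.12 for old mice, so array 2 was lower in each group and the arrays of a group lay farther apart than the groups. On those second arrays 63.2%, 52.5% and 48.8% of tested probes had red signal above background, against 94.6%, 95.5% and 11.5% on the first, and their part in the hnRNP values was not tested. Hnrnpa2b1, which binds nuclear transcripts and sorts RNA, had the widest spread, at 0.61 and -1.04 in fl26 and at 0.33 and -0.56 in svb9, by its brightest probe. Its other probe did not show it, at -0.07 and 0.08 in fl26 and at 0.14 and -0.02 in svb9. Hnrnpm, a regulator of alternative exons, was at 0.20 and -0.78 in fl26 and at 0.01 and -0.56 in svb9.

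Hnrnpa1, which opposes SR proteins at many exons, was at 0.32 and 0.57 in fl26, 0.09 and 0.19 in svb9 and 0.02 on the 1 old array kept. With outlier spots kept, Hnrnpa1 was at -0.07 and 0.53 on the old arrays. Its estimate in fl26 was 0.45 ± 0.09 (SE, 2 arrays), with an unadjusted p of 0.00448 and an adjusted p of 0.290, the smallest of the 75 genes. The means of its other 3 probes in fl26 were 0.03, 0.12 and 0.04. Hnrnph1, a reader of G-rich sequence, was at 0.68 and 0.11 in fl26 and at 0.42 and -0.02 in svb9. Hnrnpd, which also binds AU-rich elements of mRNA, was at -0.13 and -0.59 in fl26 and at -0.07 and -0.51 in svb9, and Hnrnpa0 was at -0.26 and -0.13 in fl26 and at -0.18 and -0.28 in svb9. Hnrnpk, which binds C-rich sequence, was at 0.68 on old array 1 by its brightest probe, where both other groups had values between -0.08 and 0.24. The old means of its 3 probes ran from 0.10 to 0.68. Hnrnpul1 was at -0.21 and -0.14 in old wild type. Hnrnpc, which binds U-rich tracts, was 0.41 ± 0.16 (SE, 2 arrays per line) higher in fl26 than in svb9, with an unadjusted p of 0.0394 and an adjusted p of 1. Its second probe gave a difference of -0.02 ± 0.23 (SE, 2 arrays per line).

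Over the whole set, no gene passed limma's test at an adjusted p of 0.05 in fl26, where 0.0503% of all tested probes passed, and none passed in svb9 or in fl26 against svb9, where 0% of all tested probes did. At an unadjusted p below 0.05 there were 9 of 75 genes in fl26 (12%, against 10.2% of all tested probes), 6 in svb9 (8.0% against 4.45%) and 2 in fl26 against svb9 (2.67% against 2.18%). The 9 in fl26 were Hnrnpa1, Scaf11, Prpf3, Prpf19, Prpf38a, Hnrnpa0, Hnrnpd, Prpf8 and Hnrnph1. The 6 in svb9 were Prpf19, Sf3b2, Snrpe, Hnrnpa0, Scaf11 and Snrpc, and the 2 in the difference were Hnrnpc and Sf3a3.

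In fl26 the median log2 ratio of the 75 genes was -0.002, with 37 above and 38 below 0. In svb9 it was -0.05, with 28 above and 47 below. For old wild type it was 0.000, with 37 above and 37 below of 74 with a value. Over all tested probes the medians were 0.000, -0.003 and -0.02, and 50.1%, 48.7% and 43.9% were above 0. After median centring, which left array medians of all tested probes between -0.45 and 0.35, the genes split into 67 above and 8 below 0 in fl26 and 2 above and 72 below in old wild type. The spread between genes was wider on the second arrays: the SD of the 75 log2 ratios was 0.18 and 0.36 in fl26, 0.18 and 0.30 in svb9 and 0.29 and 0.40 on the old arrays.

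**Figure D4:**
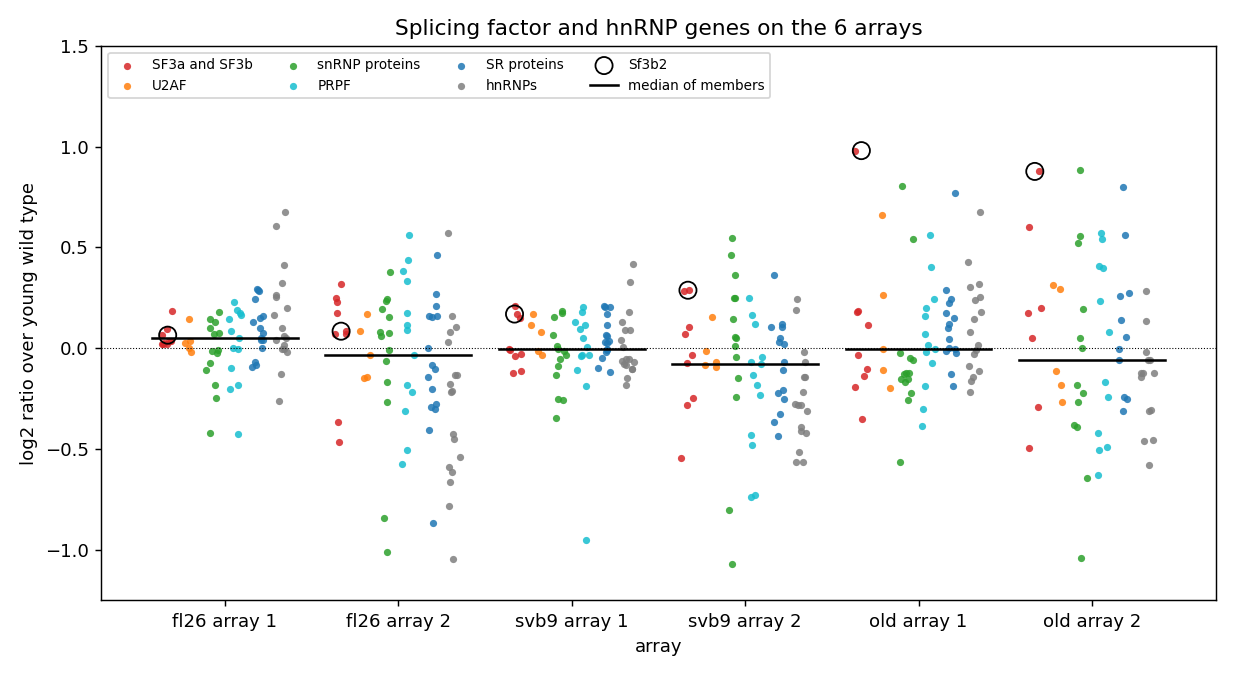
Log2 ratio to young wild type (vertical axis) of the 75 genes on each of the 6 arrays after loess, 1 point per gene, coloured by family; black bars are medians and circles mark Sf3b2. The medians lay between -0.08 and 0.05. With outlier spots left out, Sf3b2 stood at or next to the top on the old arrays. After median centring Sf3b2 was below 0 on both.

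In both arrays of fl26, 26 of 75 genes were above 0 and 14 below, against 27.3% and 26.1% of all probes measured on both. In svb9 16 of 73 were above and 29 below, against 27.5% and 28.0%. For old wild type 15 of 61 were above and 22 below, against 24.0% and 33.8%. At 0.5 or more (log2) on both arrays there was no gene in fl26 in either direction, where 0.447% of probes were that high and 0.371% that low. In svb9 there was none above, with 0.0760% of probes, and 1 below (Prpf19), with 0.0723%. In old wild type 4 of 61 were above (Sf3b2, Snrnp70, Snrpf and Prpf6), with 0.914% of probes, and 1 below (Snrpc), with 0.138%. These counts rest on loess and on leaving out outlier spots. With outlier spots kept, Snrnp70 was at 0.38 and 0.70 and Snrpf at 0.58 and 0.32 on the old arrays, so neither reached 0.5 on both. Sf3b2 is the gene by which the set was chosen, and red signal of Snrpc was not well above background on old array 1. On that array red was well above background for 41.3% of the 75 genes but 11.5% of all tested probes. The part of signal strength in these counts was not tested.

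The 2 arrays of a group lay over 0.5 apart for 14 of 75 genes in fl26 (9.40% of all probes), 11 of 73 in svb9 (4.79%) and 10 of 61 in old wild type (7.26%). Across genes, which are not independent replicates and share arrays and dyes, the Pearson correlation of array 1 with array 2 was -0.011 in fl26, 0.329 in svb9 and 0.481 on the old arrays, against 0.259, 0.170 and 0.386 over all tested probes. On the 6 arrays together, 61 genes had every value. Of these, 7 were below 0 throughout (Hnrnpa0, Hnrnpd, Prpf38a, Prpf4b, Snrpc, Snrpg and Srsf12), against 6.92% of probes, and 4 above 0 throughout (Prpf38b, Prpf40b, Scaf11 and Sf3b2), against 5.06%, all after loess. After median centring Hnrnpa0, Hnrnpd, Prpf38a, Prpf4b, Snrpc, Snrpg, Scaf11 and Sf3b2 each had values on both sides of 0. All arrays have young wild type RNA in green, so these counts do not come from independent controls.

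**Figure D5:**
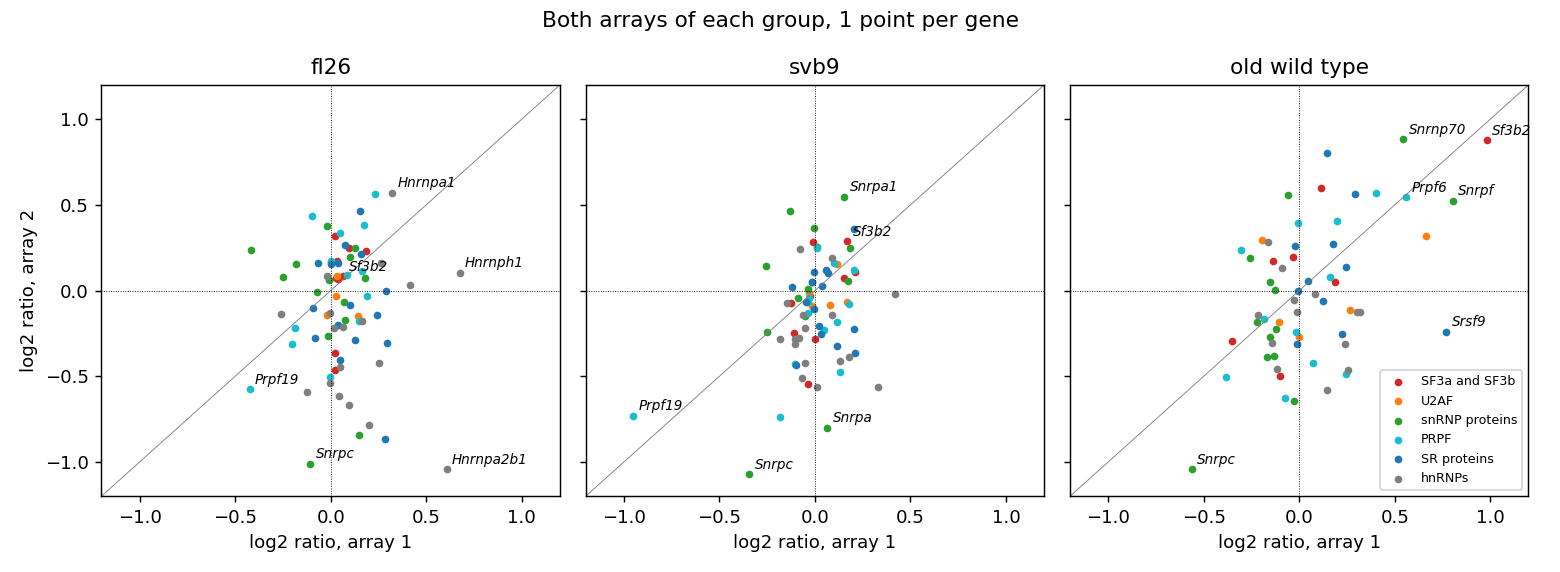
Log2 ratio on array 1 (horizontal) against array 2 (vertical) for fl26, svb9 and old wild type after loess, 1 point per gene, coloured by family; the grey line marks equality. In fl26 the points scatter without relation (r = -0.011), whereas in old wild type Sf3b2, Snrnp70, Snrpf and Snrpc lie far out on both arrays, of which the first 3 turn below 0 after median centring.

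Genes with several probes allow a comparison between probes. Whether the probes of a gene read the same transcripts was not tested. All probes of a gene had the same sign in 21 of 46 such genes for fl26, 21 of 46 for svb9 and 16 of 38 for old mice. The median gap between the highest and lowest probe of a gene was 0.20, 0.15 and 0.18 (log2), and the widest gaps were 0.65 for Hnrnpdl in fl26, 0.57 for Prpf4b in svb9 and 0.80 for Snrnp70 in old wild type. For Sf3b2 and the other 28 genes with 1 probe no such comparison can be made.

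A further 5 lists of splicing genes with other names were read in the same way. None of the 49 other spliceosome proteins, 20 SR-related proteins and their kinases, 34 other RNA-binding regulators, 14 snRNP assembly factors and 11 exon junction and export proteins passed in fl26, svb9 or their difference. At an unadjusted p below 0.05 there were 6, 6, 10, 3 and 0 in fl26, 2, 1, 4, 0 and 2 in svb9 and 1, 0, 1, 1 and 0 in their difference. In fl26 these are 12.2%, 30.0%, 29.4%, 21.4% and 0% of the lists, against 10.2% of all tested probes; the shares of all tested probes were 4.45% in svb9 and 2.18% in the difference. Their medians in fl26 were 0.02, -0.04, 0.002, 0.05 and 0.02. Their medians in old wild type were -0.005, 0.01, -0.04, 0.09 and -0.06. The lowest adjusted p among them was that of Cwc22, a partner of the exon junction complex in the spliceosome, which was at 1.23 and 1.18 in fl26 (adjusted p = 0.0589), 0.11 and 0.19 in svb9 and 0.12 and 0.57 in old wild type; it is named after its values were seen.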

How the data were processed

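Array files hold mean spot intensities and median background intensities of both channels, as read by Agilent Feature Extraction and not normalized, per the file headers. They also give log10 ratios that this software background-subtracted and dye-normalized, and, also per the file headers, flags on outliers, saturation and background. A deposited table of the series repeats the log10 ratios in rounded form.

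Log2 ratios were computed from the intensities in R 4.3.3 with limma 3.58.1. Control spots (2256 of 43790) and outlier spots were left out, normexp (offset 50) corrected the background, loess (span 0.3) normalized each array, and spots of a probe were averaged. A probe was tested (27858 in all) if 1 of its channels was well above background on both arrays of a group. Group means of the 3 groups were fitted over all 6 arrays with moderated variances, 2-sided, with Benjamini-Hochberg adjustment over tested probes; 3 residual degrees of freedom were supplemented by 3.26 prior ones. The number of arrays limits the precision. If arrays share a young wild type pool, its own spread is not in these tests.

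Symbols came from RefSeq (GRCm38.p6), by accession for 113 of the 145 probes and by array name for 32. The members and lists were chosen with earlier results of these data known. Genes were named by rule: all SF3a, SF3b and U2AF members, those past the threshold, the 3 highest and 3 lowest of each group with equal sign and signal on both arrays, the 3 with the widest and the 3 with the narrowest range, and the 3 whose probes differ most in old mice; other names illustrate the counts and were chosen after their values were seen. Data were simulated for 26014 probes with noise drawn independently for each array. There the fit recovered 82% of changes of 1 (log2) and 97% of changes of 2 in fl26. In svb9 it recovered 76% and 96%. It falsely called 8 probes in fl26 and 6 in svb9. In the real data the estimates of the 75 genes ran from -0.559 to 0.447 in fl26 and from -0.841 to 0.351 in svb9. Recovery at sizes below 1 was not tested. Same-numbered real arrays deviated together (r from 0.166 to 0.586), which the simulation leaves out, so its shares and false calls may not hold for the real arrays.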

Additional observations from a re-analysis of the deposited data

How the results depend on the processing

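Medians and counts were recomputed without background correction, after median centring, from the scanner software's log ratios, with a stricter and with no filter, with outlier spots kept, with saturated spots missing, with the extraction date as a term, over the mean of a gene's probes, and without each array in turn; a mean-variance trend was tried for the counts and single genes. The median log2 ratio in fl26 was 0.279 after median centring, against -0.002. In old wild type it was -1.736 after median centring and -0.096 from the scanner software's log ratios, against 0.000. The cause was not tested. Without each array in turn the median lay between -0.032 and 0.049 in fl26, -0.080 and -0.005 in svb9 and -0.058 and 0.000 in old wild type, with the value of -0.058 without old array 1. The count of genes past the threshold stayed at 0 in fl26, svb9 and their difference without each array in turn.

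Replicate numbers 1 and 2 recur in every group, but no label calls this a pairing. Over 26014 probes, same-numbered arrays deviated together from their group means, with r = 0.586 between the transgenic lines, 0.331 between fl26 and old mice and 0.166 between svb9 and old mice. With these numbers as a replicate block, limma called 2 of the 75 genes in fl26 (Hnrnpa1, higher, and Snrpc, lower), where it called 3.59% of all tested probes, and 0 in svb9 and in the difference.

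In red, 44 of the 75 genes were not well above background on old array 1, against 5 on old array 2.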
